A study of Mus musculus with 24 samples.

Results

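Day 3 wounds of the mouse cheek were compared with day 3 wounds of the mouse back, across all genes. The comparison used 8 of the 24 RNA-seq libraries of the study, 4 from cheek wounds and 4 from back wounds, each from a different mouse. The animals were CD-1 mice, an outbred strain, aged 7 weeks. Each cheek mouse carried 1 full-thickness excisional wound of 2 mm diameter and each back mouse carried 2, so wound number and site cannot be told apart. Tissue was taken 3 days after wounding with a 2 mm punch, and each mouse also gave a library of unwounded skin of the same site. No transgene, drug or genotype distinguished the groups. The remaining 4 mice were wounded on the abdomen. Their libraries helped estimate the spread between mice and counted towards the level a gene needed to be tested.

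The dermis of the face arises from cranial neural crest, whereas that of the back arises from paraxial mesoderm. Hox genes encode transcription factors that lie in 4 genomic clusters and mark position along the head-to-tail axis. Cells of the anterior head form without most Hox expression, and adult skin fibroblasts keep much of the Hox pattern of the place they came from. At 3 days a punch wound is inflamed, its edges are covered by migrating keratinocytes, and new granulation tissue is starting to form.

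Expression was given as FPKM, fragments per kilobase of transcript per fixed number of mapped fragments, a unit that corrects for transcript length and library size. FPKM sums ran from 532586 to 547623 in cheek wounds and from 555932 to 584822 in back wounds, and 16404 to 16577 and 16332 to 16446 genes were above 0. Absolute depth is unknown. The step between the lowest values put the relative depth at 1.011 to 1.037 in cheek wounds and 0.979 to 1.06 in back wounds. Correlations between the 8 libraries, across genes that are not independent replicates, were 0.969 to 0.987. The first principal component held 34.7% of their variance and separated the sites. Keratin 10 (Krt10), a marker of differentiated epidermis, was between 2217 and 3385 FPKM in all 8 libraries. S100a8, an abundant neutrophil protein, was between 185 and 555 FPKM, against means of 3.98 and 2.71 FPKM in unwounded cheek and back skin. Tissue and wound state therefore matched the labels.

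Of 14023 genes tested, 351 (2.5%) differed between cheek and back wounds at an adjusted p under 0.05 by limma. Of these, 267 were higher in cheek wounds (1.9% of genes tested) and 84 were lower (0.599%). The split depended on how the libraries were scaled: 76.1% of the differing genes were higher in cheek wounds on the deposited scale, but 41.7% were after median-ratio scaling and 50.6% after quantile normalisation. Most differences were small, with 41 genes over 2-fold higher and 37 over 2-fold lower. The 4 cheek libraries all lay above the 4 back libraries for 2412 genes (17.2%) and all below for 569 (4.06%). Over all genes tested the median difference was 0.09 on the log2(FPKM + 0.5) scale, on which every difference and fold below is given. In bulk tissue, fewer cells of a type and less RNA per cell cannot be told apart.

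**Figure D1:**
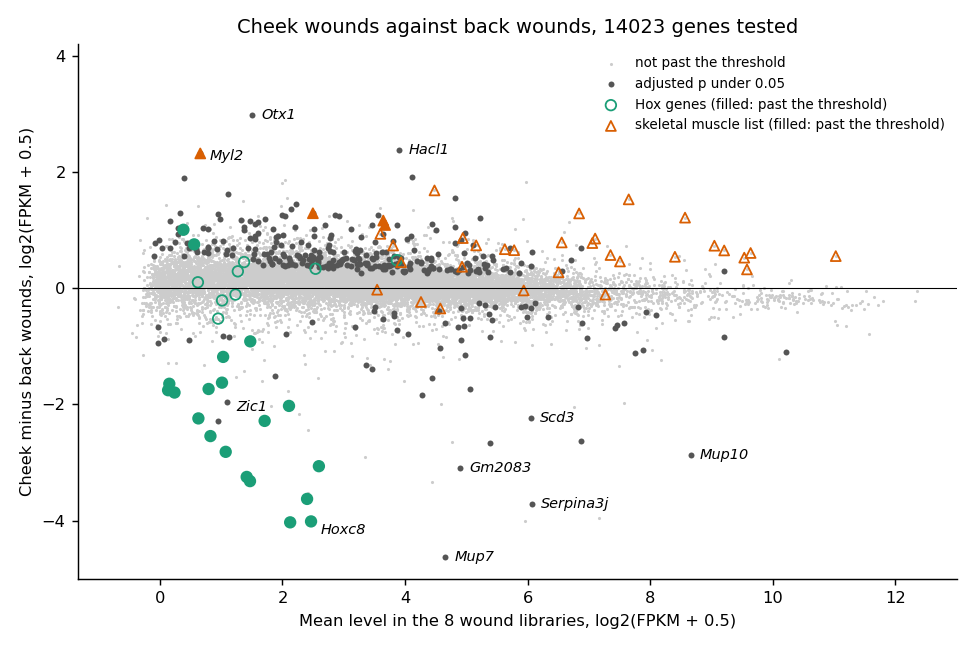
Each point is 1 of the 14023 genes tested. The x axis is the mean level in the 8 wound libraries and the y axis is the cheek minus back difference, both on the log2(FPKM + 0.5) scale; 18 filled Hox circles lie below 0 and 2 above, and 4 muscle triangles that passed the threshold lie above.

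The number of genes called rested on all mice: without any 1 cheek mouse it was 57 to 76, without back mice 2, 3 or 4 it was 102, 55 and 48, and without back mouse 1 it was 511. Across the 20 alternative analyses, 35 genes passed the threshold every time, 27 lower and 8 higher in cheek wounds. Every other call named below was lost, or could not be tested, in at least 1 of them. Of these 35, 17 were Hox genes. The other lower genes were Serpina3j, Gm2083, Serpinb6e, Scd3, Zic1, Nxph4, Adh1, Ndufa4l2, Acox3, Ccdc68 and En1, and the higher ones included Otx1, Hacl1, Mab21l1, C130079G13Rik, Cyp26b1, Coch and Acoxl. Differences also moved with transcript length. The median annotated transcript was 4612 bases for genes higher in cheek wounds, 1886 bases for lower genes and 2953 bases for all genes tested. Genes with the shortest transcripts (up to 1200 bases) had a median difference of -0.11 and those with the longest (from 6354 bases) of 0.28, against 0.04 and 0.24 in unwounded skin. With the length trend removed 229 genes differed, 174 higher and 55 lower, and 179 of them were among the calls above. Calls lost this way included those of Slit2, Gpc3, Ereg, Lgr6, Mmp16, Mmp23, Tgfbr1 and Kdm5d, whereas the 35 genes kept theirs. Whether transcript length caused any single difference was not tested.

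Hox genes were the largest of the listed groups among the lower genes. Of 37 Hox genes in the table, 28 were expressed enough to be tested. Of these, 18 were lower in cheek wounds and 2 were higher, against 0.599% and 1.9% of all genes, and 8 did not pass the test. Hox genes made up 21.4% of all genes lower in cheek wounds. Their median difference was -1.69, against 0.09 for all genes tested; it was -2.45 with a pseudocount of 0.1 and -1.15 with a pseudocount of 1, since many were listed at 0 in cheek wounds. The summed Hox level was 38.2 to 46.2 FPKM in the cheek libraries and 99.1 to 119 FPKM in the back libraries.

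The 150 bases before the RefSeq promoter start site of 5 Hox genes are shown because these genes differed between the wounds and come from clusters A, B and D; the sequences are RefSeq entries on GRCm38.p6, read 5′ to 3′ on the gene's strand, with CG dinucleotides in capitals. Hoxa5 (chr6:52204588-52204737, minus strand), Hoxa9 (chr6:52227371-52227520, minus), Hoxb4 (chr11:96318117-96318266, plus) and Hoxb8 (chr11:96281755-96281904, plus) were lower in cheek wounds, and Hoxd4 (chr2:74721828-74721977, plus) was higher.
Hoxa5: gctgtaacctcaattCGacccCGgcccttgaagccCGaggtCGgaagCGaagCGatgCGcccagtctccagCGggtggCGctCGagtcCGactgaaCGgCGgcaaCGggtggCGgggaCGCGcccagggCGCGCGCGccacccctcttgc
Hoxa9: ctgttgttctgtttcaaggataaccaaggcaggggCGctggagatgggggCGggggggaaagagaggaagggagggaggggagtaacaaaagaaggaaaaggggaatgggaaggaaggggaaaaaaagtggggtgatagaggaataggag
Hoxb4: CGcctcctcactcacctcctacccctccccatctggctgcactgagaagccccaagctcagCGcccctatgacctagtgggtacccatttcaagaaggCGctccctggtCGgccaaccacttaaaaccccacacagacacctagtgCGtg
Hoxb8: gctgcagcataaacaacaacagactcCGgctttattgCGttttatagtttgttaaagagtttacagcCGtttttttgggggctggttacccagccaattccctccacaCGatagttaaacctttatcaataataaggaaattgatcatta
Hoxd4: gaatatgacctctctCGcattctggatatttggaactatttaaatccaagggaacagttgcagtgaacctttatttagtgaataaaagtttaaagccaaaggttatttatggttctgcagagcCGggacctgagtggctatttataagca
These windows hold 21, 2, 5, 4 and 2 CG dinucleotides. No GENCODE vM21 exon overlaps any of them. The windows of Hoxa5, Hoxb4 and Hoxd4 lie within the spans of Hoxa3, Hoxb3 and Hoxd3. That of Hoxb8 lies within the RefSeq span of Hoxb8, whose longer models start farther upstream. Of the tested Hox genes 14 had a promoter entry, with a median of 5 CG, against a median of 10 over the 11144 tested genes with an entry, 96.7% of which held at least 1.

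Cluster B (chr11:96271330-96368254) differed throughout: all 8 tested genes, Hoxb2 to Hoxb9, were lower in cheek wounds. Hoxb7 was listed at 0 in all 4 cheek libraries and at 6.64, 6.91, 9.29 and 8.08 FPKM in the back libraries (adjusted p = 3.26e-08 by limma). Hoxb8 was listed at 0 in the 4 cheek libraries and at 4.0, 3.71, 5.04 and 5.42 FPKM in the back libraries. Hoxb5 was likewise at 0 in every cheek library, and Hoxb6 in all but 1. Hoxb2, the gene of the cluster that acts farthest forward in the embryo among those tested, was still present in cheek wounds, at 0.84, 1.19, 0.66 and 2.43 FPKM against 5.45, 6.2, 5.95 and 7.74 in back wounds. Its difference was -2.03 ± 0.23 (SE, adjusted p = 0.00106 by limma).

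In cluster C (chr15:102921131-103036856), 6 of 7 tested genes were lower in cheek wounds. Hoxc8 was at 0.02, 0.17, 0.1 and 0.32 FPKM in the cheek libraries and at 9.89, 10.7, 9.8 and 9.26 FPKM in the back libraries, a difference of -4.01 ± 0.15 (SE, adjusted p = 3.06e-08 by limma). Hoxc9 was at 0 to 0.03 FPKM in cheek wounds and 3.77 to 4.57 FPKM in back wounds. Hoxc10 was listed at 0 in every cheek library, and varied over 0.98, 2.35, 1.21 and 3.83 FPKM in the back libraries. Hoxc4 and Hoxc5, at the other end of the cluster, were present at both sites, with means of 1.45 and 0.76 FPKM in cheek wounds and 3.12 and 2.33 FPKM in back wounds. Hoxc13, which regulates hair keratins, overlapped between the sites and did not pass the test (0.29, adjusted p = 0.25 by limma).

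Cluster A, on chromosome 6, was divided. Hoxa2, Hoxa3 and Hoxa4 did not pass the test, and their mean levels in cheek and back wounds were 2.5 and 1.69, 1.09 and 1.78, and 1.4 and 1.64 FPKM. In contrast, Hoxa5, Hoxa7, Hoxa9 and Hoxa10, were all lower in cheek wounds. Hoxa7 was at 0.17, 0.45, 0.33 and 0.24 FPKM in the cheek libraries and 9.42, 9.53, 8.47 and 9.67 FPKM in the back libraries (-3.63 ± 0.21, SE, adjusted p = 2.41e-06 by limma). Hoxa5 was at 0.48 to 0.69 FPKM in cheek wounds and at 4.13 to 5.42 FPKM in back wounds, and Hoxa9 at 0 to 0.02 against 1.78 to 3.74 FPKM.

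Cluster D (chr2:74668225-74765142) did not share the pattern. None of its 5 tested genes was lower in cheek wounds, and 2 neighbours were higher. Hoxd3 was at 1.43, 0.94, 1.41 and 1.2 FPKM in the cheek libraries and 0.39, 0.33, 0.32 and 0.42 in the back libraries, a difference of 1.00 ± 0.18 (SE, adjusted p = 0.021 by limma). Hoxd4 was at 1.22, 1.32, 1.33 and 1.53 FPKM against 0.63, 0.63, 0.5 and 0.63. The spans of Hoxd3 and Hoxd4 overlap in the annotation, so reads of one could be counted to the other. The same holds for Hoxb3 with Hoxb4, and for Hoxa3 with Hoxa4 and Hoxa5. Hoxd8, the highest Hox gene of the cheek wounds, was at 14.8 to 18.9 FPKM there and at 9.57 to 13.1 FPKM in back wounds, but missed the threshold (0.48, adjusted p = 0.07 by limma). Hoxd9 and Hoxd10 overlapped between the sites.

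**Figure D2:**
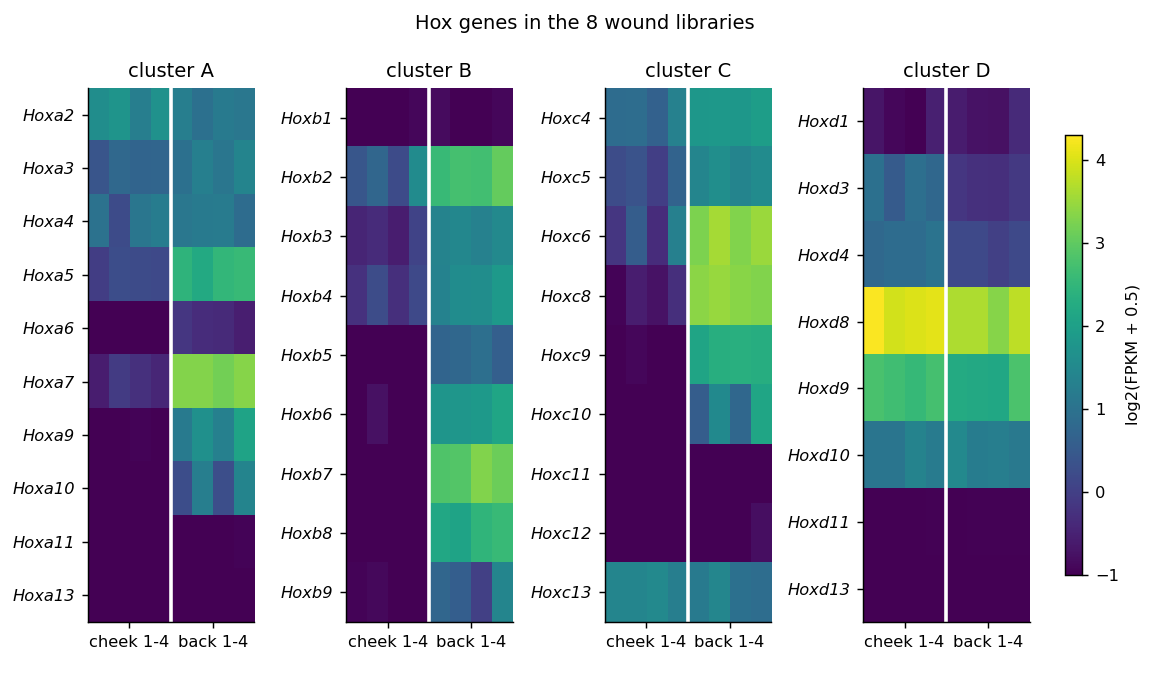
Hox genes in rows, by cluster and in order of paralogue number, and the 8 wound libraries in columns, coloured by log2(FPKM + 0.5). Hoxa5 to Hoxa10, Hoxb2 to Hoxb9 and Hoxc4 to Hoxc10 are darker in the 4 cheek libraries than in the 4 back libraries, whereas Hoxa2 to Hoxa4, Hoxc13 and Hoxd8 to Hoxd10 are present at both sites and Hoxa11, Hoxa13, Hoxc11, Hoxc12, Hoxd11 and Hoxd13 are at or near 0 in all 8.

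Transcription factors of head and trunk development were taken from a pair of lists. Of 22 tested factors with roles in the head and face, 1 was higher in cheek wounds and none was lower, against 1.9% and 0.599% of all genes. The median difference was 0.18. Otx1 (chr11:21994764-22001651), a homeobox gene of the forebrain and anterior head, was at 4.74, 4.45, 4.79 and 4.17 FPKM in the cheek libraries. The back libraries held 0.17, 0.1, 0.04 and 0.27 FPKM. The difference was 2.98 ± 0.22 (SE, adjusted p = 2.11e-05 by limma), the largest rise of any gene tested. The developmental factors Msx1 and Six4 had 4 cheek libraries above the 4 back libraries but did not pass the threshold, with adjusted p of 0.066 and 0.054 by limma. Foxl2 and Nkx2-5 were listed at 0 in the 4 back wounds and at 0.21 to 0.38 and 0.2 to 0.53 FPKM in the cheek wounds, under the level required for testing.

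Of 18 tested factors of trunk and limb, 2 were lower and 1 was higher in cheek wounds, against 0.599% and 1.9% of all genes. The median was 0.1. Zic1 (chr9:91358058-91365768), a zinc-finger factor of dorsal neural tube and somites, was at 0.62, 0.36, 0.12 and 0.39 FPKM in the cheek libraries and 2.67, 4.34, 2.0 and 2.61 in the back libraries. The difference was -1.95 ± 0.22 (SE, adjusted p = 0.000876 by limma). En1 (chr1:120602487-120607991), the homeobox gene whose lineage includes scar-forming dorsal fibroblasts, was at 2.87, 1.98, 2.58 and 2.88 FPKM in cheek wounds and 4.38, 4.64, 4.44 and 5.67 in back wounds. It differed by -0.78 ± 0.12 (SE, adjusted p = 0.011 by limma), and so was lower but not absent in the cheek. Tbx15, a T-box factor of dorsal dermis, went the other way, at 20.2 to 24 FPKM in cheek wounds and 11.5 to 14.8 in back wounds. Its call was lost in 7 of 8 analyses that left out a mouse. Hand2, Tbx3 and Tbx5 did not pass the test between the wounds. Hand2 and Tbx5 reached the level required for testing only with the abdomen wounds counted. Mab21l1, a factor of eye and craniofacial development, was at 1.04 to 1.48 FPKM in the cheek libraries and 0.19 to 0.26 in the back libraries.

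**Figure D3:**
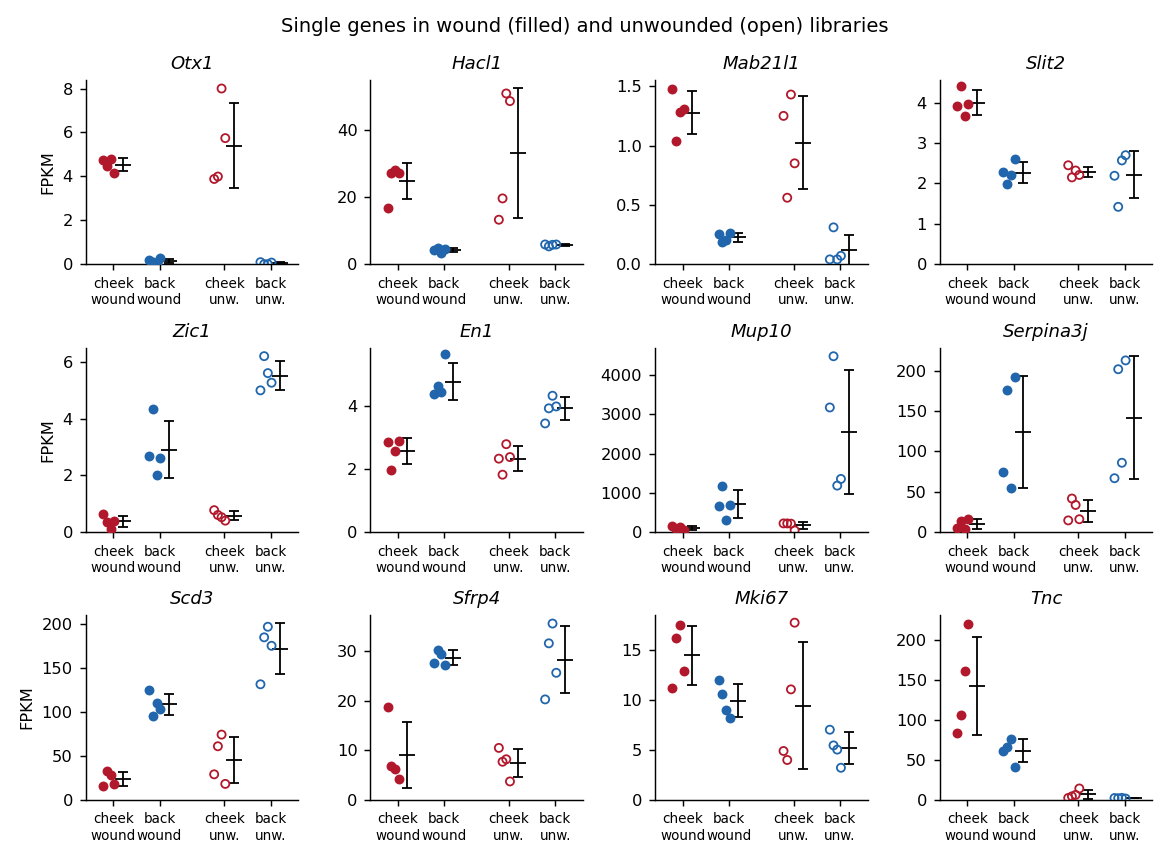
FPKM of 12 genes in each of 4 cheek and 4 back libraries, from wounds (filled) and from unwounded skin of the same mice (open), with the mean and SD beside each group of 4 mice; every axis starts at 0. The wound groups do not overlap except for Mki67, where the lowest cheek value, 11.2, lies below the highest back value, 12.0.

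Hacl1 (chr14:31607226-31640965), the peroxisomal lyase of fatty acid alpha-oxidation, was at 16.6, 27.2, 27.9 and 27.1 FPKM in the cheek libraries against 4.32, 4.84, 3.39 and 4.61 in the back libraries. The difference was 2.38 ± 0.19 (SE, adjusted p = 4.38e-05 by limma), and the groups were far apart. Scd3, a stearoyl-CoA desaturase of sebaceous glands, was at 15.3, 32.6, 28.3 and 18 FPKM in cheek wounds and 125, 95.7, 110 and 103 FPKM in back wounds. Scd3 (chr19:44203288-44244016) was 4.71-fold higher in the back, and was the only one of 17 sebaceous genes to pass the test; the median of that list was 0. The peroxisomal acyl-CoA oxidases differed in opposite directions, with Acox3 at means of 15.1 against 31.4 FPKM and Acoxl at 21.7 against 11.4 FPKM in cheek and back wounds.

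Several genes of major urinary proteins, lipocalins that bind pheromones, were lower in cheek wounds. Of 21 Mup genes, 9 were tested and 5 were lower, against 0.599% of all genes. For 6 the 4 cheek libraries lay below the 4 back libraries, against 4.06% of all genes. Mup20, among these, reached the level required for testing only through its back libraries. Mup10 (chr4:60578260-60582276) was at 153, 76.3, 126 and 38.8 FPKM in cheek wounds and 675, 1182, 301 and 679 FPKM in back wounds, 7.28-fold higher in the back (adjusted p = 0.019 by limma). Mup7 had the largest fall of any gene tested, from means of 48.6 to 0.795 FPKM (-4.62 ± 0.76, SE), but back mouse 2 alone held 139.5 FPKM and the other 3 held 13.1 to 27.3. Mup7 lost its call in 4 of 8 analyses that left out a mouse, and Mup10 in 2. Mup genes are nearly identical in sequence, so how their reads were divided between them is uncertain. The serine protease inhibitor Serpina3j, also of a family of close copies, was at 4.37, 13.0, 3.81 and 16.3 FPKM in the cheek libraries and 74.2, 176, 54.8 and 192 FPKM in the back libraries, and was 13.1-fold higher in the back (adjusted p = 0.011 by limma). Of 9 tested Serpina3 genes, 2 were lower, against 0.599% of all genes. The predicted gene Gm2083 was at 2.65 to 7.8 against 25.3 to 71.4 FPKM.

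The remaining large rises in cheek wounds were Gm13124, Rhox4a, C130079G13Rik, Dynap, Scn4b and Kcna7. The predicted gene Gm13124 was at 23.6 to 33.4 FPKM in cheek wounds against 5.92 to 7.81 in back wounds. Rhox4a, a homeobox gene of the X chromosome with close copies, was at 0.92 to 2.0 FPKM, and was listed at 0 in 3 of 4 back libraries. It reached the level required for testing only through its cheek libraries, which settled in advance that the groups would not overlap. Scn4b and Kcna7 encode channel subunits found in muscle, and were at 3.85 to 8.13 against 1.41 to 2.36 FPKM and at 3.78 to 8.25 against 1.08 to 2.52 FPKM; their calls were lost in 8 and 7 of 8 analyses that left out a mouse. Dynap was at 1.63 to 4.26 against 0.36 to 0.72 FPKM.

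Skeletal muscle transcripts were more abundant in cheek wounds for several genes of the contractile apparatus. Of 34 tested muscle genes 4 were higher and none was lower, against 1.9% and 0.599% of all genes. For 16 of the 34 the 4 cheek libraries lay above the 4 back libraries, against 17.2% of all genes. The median difference was 0.66. The summed level of the list was 7492 to 11180 FPKM in the cheek libraries and 4914 to 6977 in the back libraries, which did not overlap. Titin (Ttn, chr2:76703980-76982557), the elastic filament of the sarcomere, was at 9.27, 7.43, 6.69 and 6.58 FPKM in cheek wounds and 3.1, 3.51, 2.03 and 2.54 in back wounds, a difference of 1.29 ± 0.24 (SE, adjusted p = 0.026 by limma). The calcium release channel Ryr1 was at 15.9 to 17.8 against 6.2 to 9.14 FPKM, and nebulin (Neb) at 13.3 to 20.9 against 5.09 to 9.69 FPKM. Myl2, a myosin light chain of slow and cardiac muscle, was listed at 0 in all 4 back libraries and at 1.93, 1.17, 1.69 and 3.84 FPKM in the cheek libraries.

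Other muscle genes, abundant ones among them, did not pass the threshold. Alpha-skeletal actin (Acta1) had means of 2474 FPKM in cheek and 1702 FPKM in back wounds (0.55, adjusted p = 0.23 by limma). Myh2, a fast oxidative myosin, was at 32.6 against 11.1 FPKM (1.68, adjusted p = 0.067), and myoglobin (Mb) at 296 against 104 FPKM (1.53, adjusted p = 0.092 by limma). None of 18 tested genes of regenerating muscle passed, against 2.5% of all genes, with a median of 0. In unwounded skin the muscle list had a median of 0.15 and no gene past the threshold. The calls of Ttn, Ryr1 and Neb were lost in 6, 7 and 8 of 8 analyses that left out a mouse, and all 3 with the length trend removed. Several genes outside the list, chosen after their values were seen, are also known from muscle: Scn4a, Lmod2 and Clcn1 were higher in cheek wounds. The part of muscle content in the other rises was not tested.

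None of 38 tested proliferation genes passed the threshold, against 2.5% of all genes. A positive difference was found for 36 of 38, against 9164 of the 14023 genes tested. The median difference was 0.31 (0.53 in unwounded skin). Mki67, the marker of cycling cells, was at 11.2, 16.2, 17.5 and 12.9 FPKM in cheek wounds and 12, 10.6, 8.99 and 8.16 in back wounds. The difference was 0.51 ± 0.17 (SE, adjusted p = 0.097 by limma), and the groups overlapped in 1 library each. Top2a, Mcm2, Mybl2 and Ccnb1, further genes of DNA replication and mitosis, had differences of 0.43, 0.35, 0.45 and 0.53 with adjusted p of 0.13, 0.13, 0.15 and 0.16 by limma. For 2 of 38 members the 4 cheek libraries lay above the 4 back libraries, against 17.2% of all genes.

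Guidance cues, the secreted and membrane signals that steer migrating cells and axons, gave 3 higher genes and no lower gene among 54 tested, against 1.9% and 0.599% of all genes, with a median of 0.22. For 14 of the 54 the 4 cheek libraries lay above the 4 back libraries, against 17.2% of all genes. Slit2, a secreted ligand of Robo receptors, was at 3.91, 4.42, 3.68 and 3.97 FPKM in cheek wounds and 2.29, 1.98, 2.2 and 2.61 in back wounds. Slit2 was 1.62-fold higher in cheek wounds (0.70 ± 0.14, SE, adjusted p = 0.031 by limma), while unwounded skin had means of 2.28 and 2.22 FPKM. Netrin-1 (Ntn1) was at 9.8 to 11.4 FPKM in cheek wounds and 6.45 to 6.88 FPKM in back wounds (adjusted p = 0.019 by limma). The semaphorin Sema7a was at 14 to 18.5 against 10.8 to 12.5 FPKM. The calls of Slit2 and Sema7a were lost under median-ratio scaling and that of Netrin-1 was kept. Those of Slit2, Ntn1 and Sema7a were lost in 7, 5 and 7 of 8 analyses that left out a mouse.

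In the Wnt pathway 4 of 44 tested genes were higher in cheek wounds and 1 was lower, against 1.9% and 0.599% of all genes, with a median of 0.14. Among the receptors, Fzd4 was at 10.4, 6.67, 7.46 and 8.58 FPKM in cheek wounds against 4.8, 3.71, 3.15 and 2.93 in back wounds, 2.12-fold higher (adjusted p = 0.031 by limma). Fzd9 and the R-spondin receptor Lgr6 had means of 2.08 and 2.98 FPKM in cheek wounds, against 0.978 and 1.18 FPKM in back wounds. The R-spondin Rspo4, a ligand, had means of 1.59 and 0.868 FPKM. The secreted Wnt inhibitor Sfrp4 was the one lower gene, at 18.8, 6.92, 6.27 and 4.13 FPKM in cheek and 27.6, 30.4, 29.6 and 27.3 FPKM in back wounds, 3.57-fold higher in the back (adjusted p = 0.031 by limma). The calls of Fzd4, Fzd9, Lgr6, Rspo4 and Sfrp4 were lost in 7, 5, 7, 8 and 6 of 8 analyses that left out a mouse. Of the ligands, Wnt2 was at 0.61 to 2.74 against 2.71 to 4.7 FPKM and Wnt5a at 7.17 to 9.41 against 5.97 to 7.71 FPKM. Their adjusted p were 0.056 and 0.11 by limma. The heparan sulphate proteoglycan Gpc3, which modulates growth factor signals, was lower in cheek wounds, at 10.3 to 10.7 against 15.2 to 20.1 FPKM (adjusted p = 0.04 by limma), a call lost in all 8 analyses that left out a mouse.

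None of 19 tested genes of a list of fibrillar and associated collagens passed the threshold, against 2.5% of all genes. The median was 0.01. Col23a1, outside the list and chosen after its values were seen, was higher in cheek wounds (means 8.42 and 4.23 FPKM). Col1a1, the main dermal collagen, was at 2052, 1286, 1417 and 2618 FPKM in cheek wounds and 2497, 2268, 3048 and 3476 in back wounds (-0.65, adjusted p = 0.097 by limma). Sparc, a collagen-binding matrix protein, had means of 1701 and 2450 FPKM (adjusted p = 0.096). Of 53 tested genes of matrix organisation 2 were lower and none was higher, against 0.599% and 1.9% of all genes. Both are prolyl hydroxylases that act on collagen. P4ha1 was at 22 to 26.9 against 31.7 to 40.3 FPKM and P4ha2 at 15 to 26.4 against 33.5 to 35.8 FPKM. Their calls were lost in 7 and 8 of 8 analyses that left out a mouse. Tenascin C (Tnc), a matrix protein of healing tissue, was at 83.2, 106, 162 and 221 FPKM in cheek wounds and 61.5, 66.7, 76.1 and 41.7 in back wounds. All 4 cheek libraries lay above the back libraries, but the cheek values spread widely and the difference of 1.15 ± 0.43 (SE) had an adjusted p of 0.13 by limma. Postn, Prelp, Loxl1, Spp1, Tgfb1 and Timp1 did not pass, and Col22a1 was below the level required for testing. Among 22 tested proteases and their inhibitors, Mmp16 was higher in cheek wounds (means 0.89 and 0.362 FPKM) and Mmp23 lower (23.5 and 37.8 FPKM). The shares over all genes were 1.9% and 0.599%. Their calls were lost in 5 and 6 of 8 analyses that left out a mouse. Tgfbr1, a receptor for TGF-beta, was higher in cheek wounds at 9.79 to 11.2 against 6.21 to 8.76 FPKM. Its call was lost in 7 of 8 analyses that left out a mouse. It was the only one of 26 tested genes of a list of TGF-beta, activin and BMP signals to pass. The receptors Bmpr1a and Acvr2a, outside that list and chosen after their values were seen, were also higher, with means of 23.4 and 9.12 FPKM in cheek wounds and 16.4 and 6.24 FPKM in back wounds.

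**Figure D4:**
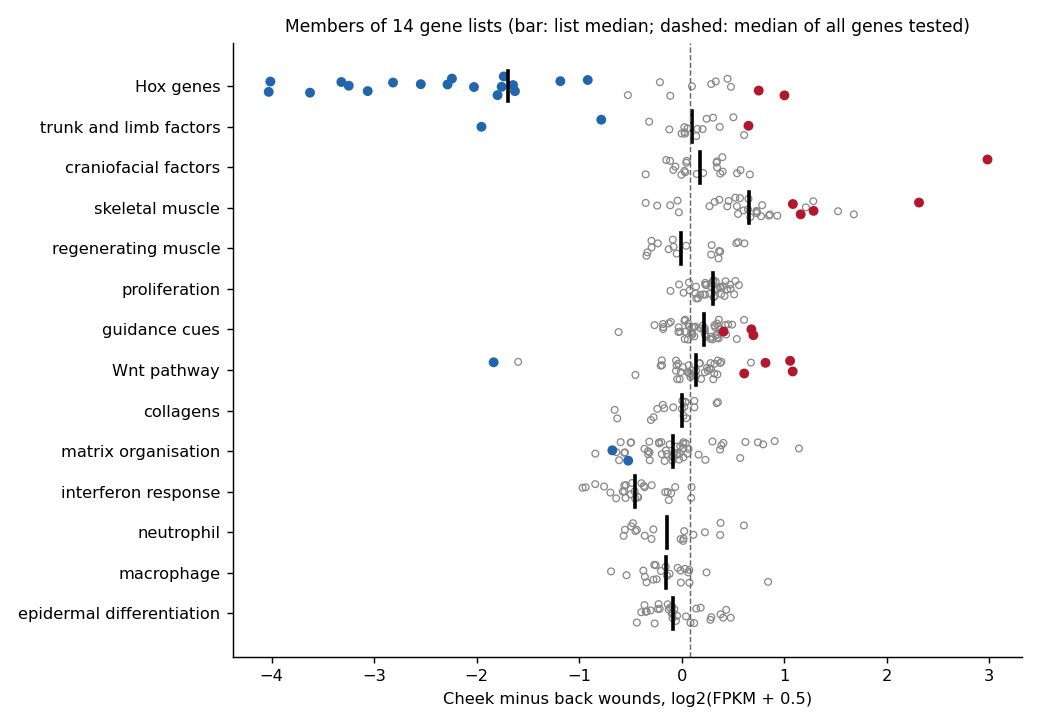
Each point is a tested member of 1 of 14 gene lists, placed by its cheek minus back wound difference on the log2(FPKM + 0.5) scale; filled red points were higher and filled blue points lower at an adjusted p under 0.05, open points did not pass. Bars are list medians and the dashed line is the median of all genes tested, 0.09; the Hox list is centred at -1.69 and the muscle list at 0.66.

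Inflammatory lists held few genes past the threshold. Only 2.5% of all genes tested passed it, so counts of 0 in lists this short say little. None of 18 neutrophil, 22 macrophage, 12 mast cell, 12 T cell or 12 Langerhans and dendritic cell genes passed, with medians of -0.14, -0.15, 0.33, -0.07 and -0.09. None of 27 genes for neutrophil chemokines and cytokines passed either, and Cxcl2 and Il1b had means of 248 and 261 FPKM in cheek wounds and 258 and 195 FPKM in back wounds. Of 26 tested genes of the CC chemokine list, 1 was lower in cheek wounds, against 0.599% of all genes. This was Ccl6, at 210, 145, 154 and 109 FPKM against 325, 282, 379 and 287. That difference, -1.07 ± 0.24 (SE, adjusted p = 0.046 by limma), lost its call whichever mouse was left out. The 28 interferon response genes had a median of -0.46, against 0.09 over all genes tested. None passed, and 2 of the 28 had a positive difference, against 9164 of the 14023 genes tested. The summed level of the list ran from 303 to 2844 FPKM among back wounds and from 557 to 977 FPKM among cheek wounds. The back libraries thus spread on either side of the cheek range.

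Among 26 tested keratinocyte genes of the wound edge, Ereg was higher and Stfa3 lower in cheek wounds, against 1.9% and 0.599% of all genes. Ereg, which encodes the EGF receptor ligand epiregulin, was at 5.0, 4.65, 5.21 and 5.2 FPKM against 2.6, 2.63, 3.09 and 3.13 in back wounds (0.72 ± 0.16, SE, adjusted p = 0.044 by limma). Stfa3, a cysteine protease inhibitor with close copies, was at 431, 837, 861 and 967 FPKM against 1730, 1585, 1755 and 1330. Both calls were lost in all 8 analyses that left out a mouse. None of 31 genes of epidermal differentiation and none of 10 growing hair follicle genes passed, against 2.5% of all genes. Lists of adipocytes, endothelium, lymphatic vessels, Schwann cells, melanocytes, cartilage and bone, red blood cells, B cells, myofibroblasts and salivary or lacrimal glands also held no gene past the threshold, with medians between -0.3 and 0.26. Of 4 Y-linked genes, Kdm5d was higher in cheek wounds, with means of 4.39 and 2.45 FPKM, a call lost in all 8 analyses that left out a mouse. The list was expressed in all 8 libraries.

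The unwounded skin of the same mice gave the background to these differences. There, 147 of 13956 genes differed between cheek and back (1.05%), 78 higher (0.559%) and 69 lower (0.494%) in cheek. Of the 351 genes that differed in wounds 48 also differed in unwounded skin, all in the same direction, which is 13.7% of the wound calls and 32.7% of the unwounded calls. The shares differed with direction. Among genes lower in cheek wounds, 34 of 83 tested in unwounded skin were lower there too, 17 of them Hox genes; among genes higher in cheek wounds the count was 14 of 263. The median unwounded differences of these sets were -0.65 and 0.35, against -0.88 and 0.52 in the wounds. The sign was the same in unwounded skin for 75 of the 83 and for 253 of the 263. Otx1 was at 3.88 to 8 FPKM in unwounded cheek and 0 to 0.09 in unwounded back skin, and Zic1 at 0.4 to 0.77 and 5.01 to 6.22 FPKM.

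**Figure D5:**
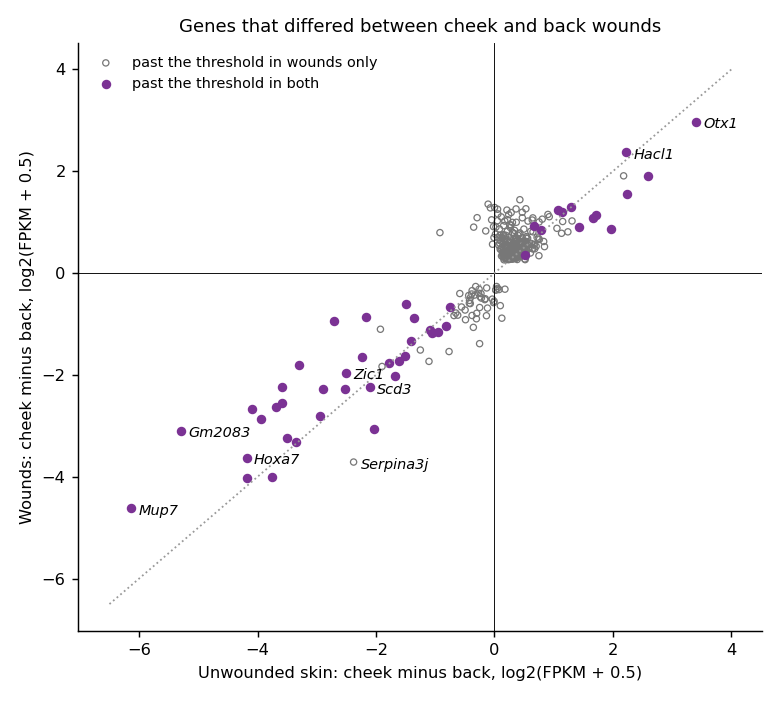
Each point is 1 of the 346 genes that differed between cheek and back wounds and were tested in unwounded skin, with the unwounded difference on the x axis and the wound difference on the y axis, both on the log2(FPKM + 0.5) scale. The 48 filled points passed the threshold in both states and lie in the same direction in each; the dotted line marks equal differences.

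Whether wounding changed a gene by a different amount at each site was tested directly in the 24 libraries with a term for each mouse. Of 14423 genes, 4 differed in response (0.0277%), and 1019 did at an unadjusted p under 0.05. For Degs2, a sphingolipid hydroxylase of the epidermis, wounds were at 29.9 to 38 FPKM in the cheek and 31.6 to 42.3 FPKM in the back. Unwounded skin was at 7.14, 7.96, 14.9 and 24.7 FPKM in the cheek and 1.5, 0.64, 1.3 and 0.66 FPKM in the back, so the site difference of unwounded skin was not seen in the wounds. The response was smaller in the cheek by 3.17 on the log2 scale (adjusted p = 0.018 by limma).

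Hand2, a transcription factor of branchial arches and limb buds, behaved in a like way. It was at 1.64, 1.03, 2.23 and 2.69 FPKM in unwounded cheek and at 0.13, 0.1, 0.05 and 0.6 FPKM in cheek wounds, and stayed at or below 0.09 FPKM in all 8 back libraries (adjusted p = 0.018 by limma). Hoxa10 was listed at 0 in the 4 cheek wounds and at 0 to 0.03 FPKM in unwounded cheek, so a fall could be seen only in the back. There it was at 3.28, 6.75, 3.1 and 5.74 FPKM in unwounded skin and 0.69, 1.92, 0.7 and 2.13 FPKM in wounds (adjusted p = 0.02 by limma). The predicted gene Gm21320 ranged from 14.2 to 766 FPKM in unwounded back and from 5.09 to 176.7 FPKM in back wounds. In the cheek it was at 0.58 to 3.66 FPKM in unwounded skin and 1.07 to 3.43 FPKM in wounds. The next genes in order, Tbx5 and Mup20, had an adjusted p of 0.054. For none of Slit2, Otx1, Zic1 or Hacl1 did the response differ at the threshold, with adjusted p of 0.37, 0.84, 0.68 and 0.94 by limma. The calls of Degs2, Gm21320, Hand2 and Hoxa10 were lost in 6, 5, 6 and 6 of 8 analyses that left out a mouse, and all 4 without the term for each mouse; that of Hoxa10 was also lost with a pseudocount of 0.1.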

How the data were processed

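RNA-seq was done on 24 libraries of mouse skin and day 3 wounds. The deposited FPKM values were made by the authors' sequencing provider: paired-end reads were mapped with HISAT2 to GRCm38 (mm10) and with Bowtie2 2.2.5 to transcripts, and quantified with RSEM 1.2.12 per library, rounded to 2 decimals and not scaled between libraries. A second deposited file, with the authors' own tests between groups (fold changes and significance), was not used. Some genes are counted in totals but not reported here by name. FPKM holds no counts, so counting error is unknown. It is also why other scalings were tried.

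The test was run on log2(FPKM + 0.5) in limma 3.58.1 and statmod 1.5.0 in R 4.3.3, with a variance trend and robust estimation. Genes at 0.5 FPKM or more in at least 4 of the 12 wound libraries were tested, and all 12 entered the fit, so that the 3 sites shared 1 estimate of spread. Cheek was compared with back, unpaired, with Benjamini-Hochberg adjustment over all genes at 0.05. The response test used the 24 libraries with a term for each mouse. Mice were separate animals, 4 per site. The script was tested on simulated data.

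Genes named were the 10 largest rises and 10 largest falls with non-overlapping libraries and a mean of at least 1 FPKM in 1 group, the 6 smallest p in each test, up to 4 per list (or the 2 most abundant where none passed), and genes the study names for RNA-seq. Some genes were named outside these rules. Among them were genes that passed in every alternative (such as Acox3 and Acoxl), further Hox genes, and Six4, Acta1, Myh2 and Mb. Members and lists were chosen with earlier results of these data known. Coordinates and promoter sequences are from RefSeq on GRCm38.p6 and exons from GENCODE vM21, the build of the files. Alternatives changed the pseudocount, filter, scaling, model and set of mice; those on transcript length were chosen after seeing the data.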

Additional observations from a re-analysis of the deposited data

Results flagged for a closer look

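In 16 of 219 groups checked, over the 128 named genes and the cheek and back wounds, 1 library stood apart from the other 3 of its group, by a gap above Dixon's critical ratio for 4 samples; chance flags about 1 in 20 groups, or 10.9 of these. Among the genes that differed between the wounds, cheek mouse 1 was low for Hacl1 (16.64 FPKM) and high for Tbx15 (23.96), and cheek mouse 2 was high for Kdm5d (5.06). Back mouse 1 was low for Hoxc9 (3.77), back mouse 2 was high for Mup7 (139.5), and back mouse 4 was high for Hoxc4 (3.37), Mmp23 (50.34) and Ntn1 (6.88).

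Among genes that did not differ, back mouse 4 was low for Eng (44.45 FPKM) and high for Krt79 (488.9), back mouse 3 was high for Gm21320 (176.7) and Wnt5a (7.71) and low for Wnt2 (2.71), cheek mouse 1 was high for Wnt2 (2.74) and for the globin gene Hbb-bs (167.13), and cheek mouse 2 was low for Prelp (40.1).

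The response to wounding differed between the sites for 4 genes by limma. The log2 difference, cheek minus back, was -3.17 for Degs2, 2.31 for Gm21320, -1.74 for Hand2 and 1.5 for Hoxa10, with adjusted p of 0.018, 0.018, 0.018 and 0.02.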

How the results depend on the processing

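The count of lower Hox genes was 18 in all 12 alternatives that kept every mouse and 16 to 18 without a mouse. Against 351 genes (267 higher, 84 lower), median-ratio scaling gave 180 (75 and 105), quantile normalisation 160 (81 and 79), removal of the length trend 229 (174 and 55), that with median-ratio scaling 148 (72 and 76), a fit of the 8 libraries alone 1067 (887 and 180) and one of 24 libraries with mouse as a random effect 130 (78 and 52). Leaving out 1 mouse gave 48 to 511 genes, 19 to 435 higher and 28 to 76 lower. The count of higher muscle genes, 4, became 2 under either scaling, 1 with the length trend removed, 1 with that and median-ratio scaling, 0 with mouse as a random effect, 0 to 3 without a mouse, and 11 in the 8 libraries alone. The count of higher Hox genes, 2, became 1 at a filter of 1 FPKM and 1 to 2 without a mouse.

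Each mouse was wounded at a single site, so the mouse numbers do not pair the sites. Same-numbered deviations correlated at -0.004 to 0.066, on average 0.02, against -0.006 for different numbers. These correlations across genes cannot decide what else a mouse number stands for. With a replicate block by that number 120 genes were called (75 higher, 45 lower), with 1 Hox gene and 1 muscle gene higher. The response test called 4 genes, 2 with a positive and 2 with a negative difference, cheek minus back. The sign does not give the size of the response at either site. These counts became 1 and 4 with a pseudocount of 0.1. Without the mouse term they were 0, and 687 genes had an unadjusted p under 0.05 by limma. Leaving out a mouse gave 0 to 8 calls, 0 to 6 positive and 0 to 2 negative. The cause of these shifts was not tested. With 4 mice a group, many small differences cannot be told from the spread between mice.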
